A study of Saccharomyces cerevisiae with 14 samples.

Results

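Nucleosome maps of a budding yeast strain lacking SNF2 (dSnf2) were compared with maps of the wild type (WT). Both strains were BY4741, a haploid laboratory strain, grown in YPD, a glucose-rich medium, at 30 °C to an OD600 of 0.8 and fixed with 1% formaldehyde for 15 min. They differ by their labels only in the SNF2 genotype, and the labels do not give the marker that replaced the gene or say whether replicates came from separate cultures. The comparison uses 5 of the 14 samples of the series, 2 replicates of dSnf2 and 3 of WT, which were chosen by genotype. The other 9 samples carry SNF2 mutants labelled CD (catalytic dead), dSnAC and dAT, 3 samples each. Chromatin was cut with micrococcal nuclease, which digests the linker DNA between nucleosomes, and the protected DNA was sequenced. The authors merged the replicates of a strain before calling nucleosomes, so each strain has 1 list of calls. No test between the strains was possible, no p-value is given, and differences are described by their size without a replicate check.

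SNF2 encodes the ATPase of SWI/SNF, a complex that uses ATP to slide nucleosomes along DNA and to remove them. In yeast it is recruited by transcription activators to promoters and is best known for inducible genes such as SUC2 and PHO5 and for cell cycle genes such as HO. It also travels into some transcribed genes, and through SER3 and the intergenic transcription upstream of it, it is known to act in repression as well. A nucleosome call has a dyad (its centre), an occupancy (how many reads it holds), a dyad SD (how widely the fragments scatter around the centre, so that a low value means a sharply placed nucleosome) and a conditional position, a fraction whose exact formula is stated by no header or label.

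The calls held 64981328 reads in WT and 41240133 in dSnf2, and the median call held 1030 and 659 reads, whose exact 95% Poisson intervals had half-widths of 6.16% and 7.71%. Such intervals cover counting error only. Occupancies are given in units of the strain's median nuclear call, so that 1 is a typical nucleosome. The deleted gene, SNF2 (YOR290C, minus strand of chromosome XV, from 855147 to 860258 in sacCer3), held 23730 reads in WT and 124 in dSnf2, or 0.844% of the WT occupancy. In dSnf2 the nucleosome at -106 bp of the start codon remained at 1.03, while the first 2 calls inside the gene held 3 reads each and none there held more than 8. MET17 and URA3, which BY4741 lacks, held no more than 8 reads in either strain. HIS3, another marker gene of BY4741, was covered in part, at 0.307 in WT (1440 reads) and 0.343 in dSnf2 (1047 reads). LEU2 was covered at 0.999 in WT and 0.994 in dSnf2, although BY4741 carries a LEU2 deletion by its published genotype. The median call of single chromosomes differed between the strains by -0.030 to 0.011 on the log2 scale, so no chromosome stood apart.

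Across the genome, nucleosomes of dSnf2 lay where they lay in WT. Of 63281 WT calls on the nuclear chromosomes 61285 (96.8%) had a mutual nearest partner within 73 bp among the 63272 calls of dSnf2. The median displacement was 2 bp, and 9.01% of matched dyads were displaced by 20 bp or more. Occupancy of matched calls ranked alike in both lists, with a Spearman correlation across calls of 0.904, and the dyad SD did so with 0.953. By a size rule of 1.5-fold, a log2 ratio of 0.58, 288 matched calls (0.47%) were higher in dSnf2 and 357 (0.583%) were lower. These correlations are across calls of 1 list each, and calls are not independent replicates. Conditional position ranked less alike, at 0.739. Its high values tracked the spacing of calls: 89.7% of WT calls and 89.7% of dSnf2 calls with a conditional position of at least 0.1 lay at the smallest spacing in the lists, 148 bp, against 17.9% and 18.4% of all calls. It was higher in dSnf2 by 0.05 or more at 930 calls (1.57% of 59139) and lower by as much at 1098 (1.86%).

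The mean profile over genes differed slightly, mainly outside coding sequence. The depleted region upstream of the start codon was lowest at -130 bp, where the mean occupancy per base over 5889 genes was 0.464 in WT and 0.435 in dSnf2. Around the start codon the ratio of dSnf2 to WT was lowest at -75 bp (0.929) and highest at 560 bp into the gene (1.02), and past the stop codon it was lowest at 90 bp (0.904). Matched calls with dyads outside open reading frames had a median log2 ratio of -0.09 (14691 calls), and those inside had 0.01 (46594 calls). Promoter occupancy, averaged over the 300 bp before the start codon, had a median log2 ratio of -0.085 over genes, the first 1000 bp of gene bodies had 0, and the 200 bp past the stop codon had -0.095. The promoter median was below 0 on each of the 16 chromosomes. Within a gene, the nucleosomes at both edges of the promoter had the lowest ratios. The median occupancy of the -1 nucleosome was 1.21 in WT and 1.13 in dSnf2, and that of +1, the first nucleosome on the gene side, was 1.28 and 1.20. The +3 nucleosome was at 1.05 in both, and +5 was at 0.940 in WT and 0.958 in dSnf2. By WT occupancy, the median ratio of matched calls was -0.12 below 0.25, -0.0023 from 0.25 to 0.5, 0.11 from 0.5 to 0.75, 0.035 from 0.75 to 1, and -0.11 at 1.5 or more. The classes between 1 and 1.5 had -0.033 and -0.081, the weaker class first. Medians were thus above 0 only from 0.5 to 1, and below 0 in all weaker and stronger classes. Sorted by the mean of both strains instead, the medians were -0.15, -0.060, 0.071, 0.027 and -0.081 in the classes listed first. Between 1 and 1.5 they were -0.029 and -0.066.

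**Figure D1:**
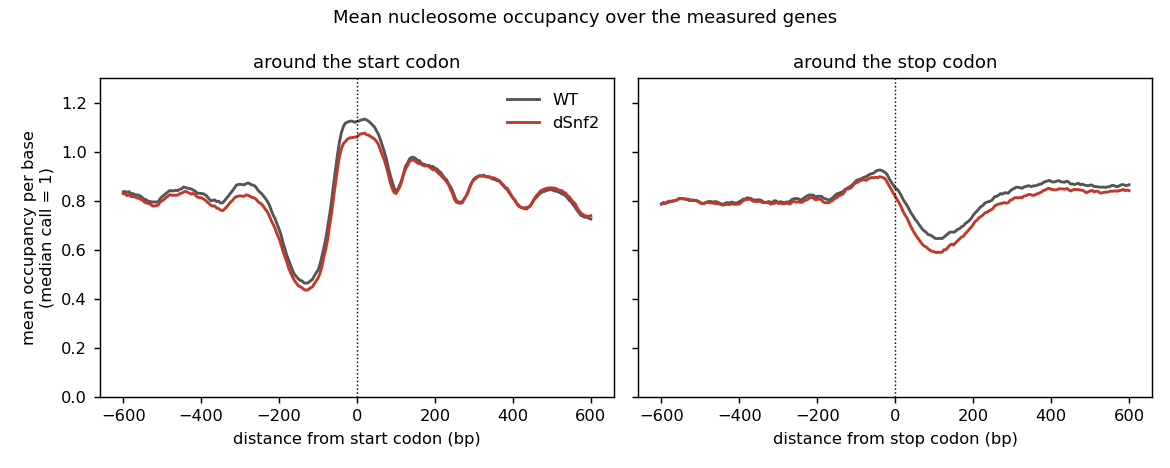
Mean nucleosome occupancy per base (vertical axis, in units of the median call) against the distance in bp from the start codon (left) and the stop codon (right) over 5889 genes, for WT (grey) and dSnf2 (red). The lines nearly coincide inside genes, and dSnf2 lies below WT upstream of the start codon (0.435 against 0.464 at -130 bp) and past the stop codon.

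Most start sites kept their layout. The widest gap between neighbouring dyads at the start codon, taken as the depleted region, had a median width of 241 bp in WT and 242 bp in dSnf2 over 5753 genes. It was bounded by the same nucleosomes in 4846 of them (84.2%). Over all 5753 genes it was wider in dSnf2 by at least 20 bp in 376 and narrower in 348. Among the 4846 genes the width differed by 20 bp or more in 112 that were wider in dSnf2 and 169 that were narrower. The +1 nucleosome was kept in 4945 genes and lay upstream by 20 bp or more in 120 (2.43%) and downstream in 50 (1.01%). Displacement was thus more often upstream for +1 (270 against 78 when every matched +1 is counted), while at +5 more nucleosomes lay downstream (188) than upstream (110).

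Single +1 nucleosomes differed by up to 73 bp, the limit set by the matching of calls. At ALD5, an aldehyde dehydrogenase gene, +1 lay at -103 bp in WT and at -175 bp in dSnf2. The +1 of STP4 lay at -70 bp in WT and at -141 bp in dSnf2. In the other direction, +1 of PMP1, a regulator of the plasma membrane proton pump, moved from -82 to -9 bp, and that of GAS1, a cell wall glucan transferase, from -136 to -74 bp. At GPM1, the glycolytic phosphoglycerate mutase, the +1 call lay at 80 bp in WT with an occupancy of 0.933 and at 144 bp in dSnf2 with 1.27. Upstream of it, a call at -216 bp of 0.450 in WT was matched by one at -208 bp of 1.16 in dSnf2.

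Promoters with higher occupancy in dSnf2 were few and had low occupancy in WT, which follows in part from choosing them by their ratio. Low occupancy in dSnf2 follows in the same way for promoters chosen as lower. By the size rule 43 of 5889 promoters were higher in dSnf2 (0.73%) and 18 were lower (0.306%), a split that became 57 and 7 relative to the median gene, 61 and 34 with calls of at least 0.25, and 48 and 39 in a window of 200 bp. The 43 had a median promoter occupancy of 0.401 in WT and 0.722 in dSnf2, while that of all genes was 0.766 and 0.723. Their gene body ratios were above 0 in 34 of 43, against 2826 of all 5889 genes, and the dyad SD of their gene body nucleosomes was lower in 23 of the 24 with a value, against 2678 of all 4999. The 18 had 0.706 in WT and 0.382 in dSnf2, with gene body ratios above 0 in 6 of 18 and a lower dyad SD in 5 of 12. Promoter and gene body windows adjoin, and a call over the start codon enters both. The gene body ratios of both sets thus follow in part from the choice by promoter ratio and are no separate result. Of the 43, 24 shared their upstream region with a divergent gene, as did 52.0% of all genes. The values nearest the rule were 0.589 just inside and 0.572 just outside.

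The highest promoter ratio belonged to ZEO1, where weak WT calls faced full nucleosomes. At ZEO1, a membrane-associated protein of the cell wall integrity pathway (YOL109W, chromosome XV, 110297 to 110638), promoter occupancy was 0.325 in WT and 0.874 in dSnf2, a log2 ratio of 1.20 with a 95% half-width from counting error of 0.10. WT had weak calls at -250 bp (0.170) and -93 bp (0.520). In dSnf2 these places held full nucleosomes at -280 bp (1.04) and -106 bp (0.929), with a further call at 46 bp (1.05). The dyad SD of the call near -100 bp was 34.0 bp in WT and 23.9 bp in dSnf2. The same nucleosomes fill the 3' flank of the upstream neighbour SHR5, where the gene end ratio was 2.11.

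At HXT3, a low-affinity glucose transporter (YDR345C, chromosome IV, 1162957 to 1164660), promoter occupancy was 0.373 in WT and 0.875 in dSnf2, a ratio of 1.05. WT had a broad call at -86 bp (0.732, dyad SD 37.3 bp) and the next at 99 bp (0.928, dyad SD 41.9 bp). dSnf2 had calls at -175 bp (1.34, dyad SD 21.0 bp), 9 bp (0.994) and 175 bp (1.15). The array was thus set differently in the strains, and the call at -175 bp was among the 6 strongest dSnf2 calls without a WT partner.

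TDH3 encodes glyceraldehyde-3-phosphate dehydrogenase (YGR192C, chromosome VII, 882812 to 883810), and its promoter was at 0.260 in WT and 0.58 in dSnf2, a ratio of 0.92. The call at -312 bp in WT held 0.275 and its partner at -295 bp in dSnf2 held 0.959. The call at -106 bp held 0.293, and at -131 bp in dSnf2 it held 0.572. Much of the open reading frame of TDH3 had no call in either strain, and its near-identical copies TDH1 and TDH2 make its gene body value uncertain. At BAP2, a permease for branched-chain amino acids (YBR068C, chromosome II, 373861 to 375690), a call of 0.118 at -338 bp in WT was a nucleosome of 0.866 at -325 bp in dSnf2. The next call held 0.543 at -137 bp in WT and 0.848 at -148 bp in dSnf2, and the promoter ratio was 0.85.

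The remaining promoters among the 12 showed a gain at 1 place each or over the whole window. At IES6, a subunit of the INO80 remodeller (YEL044W, chromosome V), a call of 1.21 stood at -249 bp in dSnf2, and the nearest in WT was 0.136 at -307 bp. The promoter ratio of IES6 was 1.11, and its first nucleosome in the gene held 1.33 and 1.37. The gain at IES6 lay far from the start codon, and in a window of 200 bp the ratio was 0.12. At AAC1, a mitochondrial ADP/ATP carrier (YMR056C, chromosome XIII), the call over the start codon held 0.252 at -23 bp in WT and 1.34 at -22 bp in dSnf2, and the promoter ratio was 0.91. SUR7, a plasma membrane protein of eisosomes (YML052W, chromosome XIII), had calls at -263 bp in both strains, of 0.854 in WT and 2.27 in dSnf2, while the call over its start codon held 1.23 in both. The promoter ratio of OPT1, an oligopeptide transporter, was 0.81 and that of GYP8, a GTPase-activating protein for Rab proteins, was 0.80. MTC7 (0.79), SFP1 (0.76) and CLB1 (0.74) complete the 12, and SFP1 is an activator of ribosomal protein genes and CLB1 a B-type cyclin. In the 200 bp window SUR7 (0.15), GYP8 (0.35), OPT1 (0.45), TDH3 (0.52) and BAP2 (0.55) did not reach the size rule either, and in a window of 500 bp SFP1 was at 0.40. By the rule described with the gene ends, the windows of MTC7, SFP1 and CLB1 touch a call that the other list had no room for. The unmatched dSnf2 call upstream of HXT3 (1.34) also lay between WT calls less than 296 bp apart, at 257 bp. The HXT3 window is not counted, and the outer of these WT calls held 0.134, below the 0.25 that the rule requires.

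**Figure D2:**
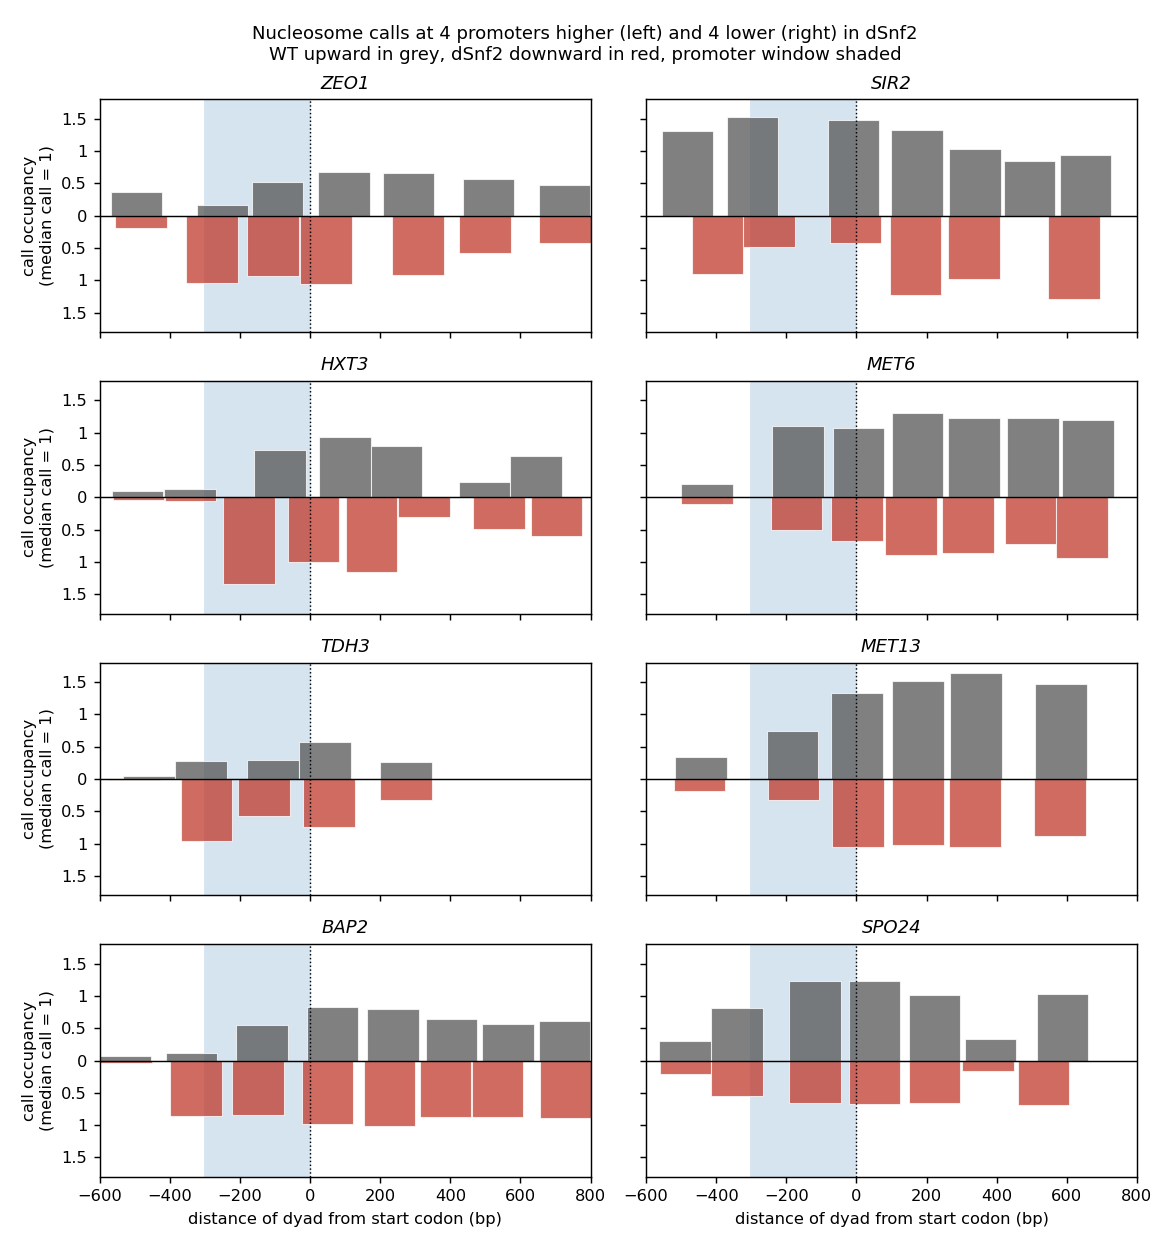
Nucleosome calls drawn as nucleosome-wide bars at the distance of their dyad from the start codon (horizontal axis, bp), with height equal to the occupancy of the call (vertical axis, median call = 1), WT upward in grey and dSnf2 downward in red, and the window from -300 to -1 bp shaded. At ZEO1, HXT3, TDH3 and BAP2 (left) dSnf2 has taller bars in the shaded window, and at SIR2, MET6, MET13 and SPO24 (right) shorter ones, which at MET6, MET13 and SPO24 go on into the gene.

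Promoters lower in dSnf2 included SIR2 and 3 genes of methionine synthesis. SIR2 encodes the NAD-dependent histone deacetylase of silent chromatin (YDL042C, chromosome IV, 376757 to 378445), and its promoter was at 0.797 in WT and 0.309 in dSnf2, a log2 ratio of -1.13. WT had strong calls at -296 bp (1.53) and at -8 bp (1.48). In dSnf2 the call near the start codon was at -2 bp with 0.420, and those upstream were at -249 bp (0.489) and -397 bp (0.903). The next nucleosome inside SIR2 held 1.33 in WT and 1.23 in dSnf2, and its dyad SD was 22.7 bp and 33.7 bp. In CD, dSnAC and dAT the SIR2 promoter ratio to the same WT list was -0.22, -0.27 and -0.36. The medians of all genes there were close, at -0.15, -0.23 and -0.30.

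At MET6, the methionine synthase gene (YER091C, chromosome V, 339864 to 342167), the loss covered the promoter and the gene. The promoter was at 0.781 in WT and 0.406 in dSnf2 (ratio -0.80), and the gene body at 1.05 and 0.689 (ratio -0.54). Along MET6 the calls at -166, 6, 174 and 335 bp in WT held 1.11, 1.07, 1.3 and 1.24, and their partners in dSnf2 held 0.502, 0.675, 0.888 and 0.863. MET13, a methylenetetrahydrofolate reductase gene (YGL125W, chromosome VII, 272520 to 274322), had the same shape, with a promoter ratio of -0.65 and a gene body ratio of -0.51. Its call at -182 bp held 0.743 in WT and 0.329 in dSnf2, and that at 341 bp held 1.64 and 1.06. At MET3, the ATP sulfurylase gene, the promoter ratio was -0.63 and the gene body ratio 0.01, so the gene body did not differ by the size rule. Its call over the start codon lay at -25 bp in WT (1.36) and at 2 bp in dSnf2 (1.23).

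SPO24, which encodes a small protein of sporulation (YPR036W-A, chromosome XVI, 645950 to 646153), also lost occupancy at fixed positions. Its calls at -118, 52 and 223 bp had the same dyads in both strains and held 1.23, 1.23 and 1.01 in WT against 0.660, 0.671 and 0.662 in dSnf2. The promoter ratio of SPO24 was -0.72 and the gene body ratio -0.71. LYP1, a lysine permease, had a promoter ratio of -0.68, and FLC1, a putative membrane transporter for FAD, -0.62, which was 0.037 in a window of 500 bp. HXT11, a hexose transporter, had -0.79, which is uncertain because its near-identical copy HXT9 can share reads. TMA10 (-0.76), RIF2 (-0.65), BMH2 (-0.63) and RDI1 (-0.60) complete the 12, and the windows of all 4 touch a call that the other list had no room for. In the 200 bp window MET3 (-0.28) and FLC1 (-0.47) did not reach the size rule, and in the 500 bp window LYP1 was at -0.27, RDI1 at -0.37, BMH2 at -0.39 and MET3 at -0.40. At TMA10, for example, WT calls at -265 and -90 bp faced 1 call at -199 bp in dSnf2.

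At 6 loci much studied with SWI/SNF, no promoter passed the size rule in the 300 bp before the start codon. This window does not cover regulatory DNA further upstream, and cells were grown in 1 medium only. SUC2, the invertase gene, had promoter occupancies of 0.685 in WT and 0.568 in dSnf2 (ratio -0.23), and its promoter calls kept their places, at -147 bp (0.875) in WT and -153 bp (0.780) in dSnf2. HO, the mating type endonuclease gene, had 1.17 and 1.05 (-0.14), and PHO8, a vacuolar phosphatase gene, 0.879 and 0.832 (-0.07). INO1, the inositol synthesis gene, had 0.867 and 0.836 (-0.05), and SER3, a serine synthesis gene, 0.504 and 0.503. PHO5, a secreted acid phosphatase gene repressed in this medium, had 1.00 in WT and 1.21 in dSnf2 (0.25). Over 13 loci of this kind, including GAL1, GAL10, HSP82 and ADH2, none passed the size rule in either direction, and their median of -0.089 was close to that of all genes. Only 0.73% of all promoters passed it upward and 0.306% downward, so holding none does not set a list of 13 apart. PHO5 differed more at its other end: the 200 bp past its stop codon, which lead to the tandem gene PHO3, were at 0.25 in WT and 0.882 in dSnf2 (ratio 1.49). There a call of 0.291 at 115 bp in WT faced one of 1.15 at 82 bp in dSnf2.

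Genes of glycolysis and fermentation had a higher median promoter ratio than all genes, but with a wide spread. The list held 19 genes, with a median promoter ratio of 0.31 against -0.085 for all genes. The interval of this median over genes, -0.19 to 0.49, included the median of all genes. Of the 19, 12 were above 0, as were 1080 of all 5889, and 4 passed the size rule upward and 0 downward. These 4 were TDH3 (0.92), GPM1 (0.72), ENO2, an enolase gene (0.70), and ADH1, the main fermentative alcohol dehydrogenase (0.65). CDC19, the pyruvate kinase gene, was at 0.49, TDH2 at 0.48 and PGI1 at 0.44. GLK1, a glucokinase gene, was lowest at -0.30, with ENO1 at -0.26, PDC5 at -0.25, PGK1 at -0.22 and PFK1 at -0.19. The list had low promoter occupancy in WT, with a median of 0.468 against 0.766 for all genes, and 0.551 in dSnf2. With a promoter window of 200 bp in place of 300 bp, its median was 0.088 against -0.080 for all genes. Several of these genes have close copies (TDH1 to TDH3, ENO1 and ENO2, PDC1 and PDC5), mostly alike in their coding sequence. The list's median was 0.12 in CD, 0.02 in dSnAC and -0.16 in dAT, each against the WT list that dSnf2 was compared with. Medians of all genes in these mutants were -0.15, -0.23 and -0.30.

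Genes of methionine synthesis and sulfate assimilation had a lower median promoter ratio than all genes. Their median ratio was -0.22 over 22 genes, with an interval over genes of -0.44 to -0.039 that included the median of all genes. Of the 22, 4 were above 0, and 3 passed the size rule downward (MET6, MET13 and MET3) and 0 upward. MET2, which makes O-acetylhomoserine, was at -0.54, MET5, a sulfite reductase subunit, at -0.46, MET1 at -0.44, the sulfate permease SUL2 at -0.39 and MET10 at -0.36. CYS4 (0.46), MUP1, a methionine permease (0.33), MET28 (0.20) and SAM1 (0.05) were the 4 above 0. Occupancy in the list had a median of 0.69 in WT and 0.574 in dSnf2 at promoters and of 0.923 and 0.785 in gene bodies. The medians at promoters were -0.32, -0.29 and -0.40 in CD, dSnAC and dAT, where those of all genes were -0.15, -0.23 and -0.30. Both strains lack MET17, a gene of this pathway, since the BY4741 background carries its deletion.

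Other lists differed less. Iron uptake genes had a median promoter ratio of 0.07 over 20 measured genes, with ENB1 (0.54), ARN1 (0.45) and SIT1 (0.41), all transporters of iron-siderophore complexes, at the top, and none passed the size rule at its promoter. In gene bodies 16 of the 20 were above 0, against 2826 of all 5889 genes and 80.1% of genes with a WT body occupancy from 0.5 to 0.75, a range that holds the list's WT median of 0.713. Of the 20, SIT1 (0.84) and ATX1, a copper chaperone (1.03), passed the size rule, both in windows touched by a call that 1 list had no room for. Amino acid permeases were split, with BAP2 (0.85) and AGP1 (0.66) higher, LYP1 (-0.68) lower and a median of -0.02. Pheromone and mating genes had a median of -0.01, with SST2, a regulator of the G protein (0.52), STE4, its beta subunit (0.42), and the receptor STE2 (0.40) highest. Ribosome biogenesis genes had a promoter median of -0.07, but in gene bodies 29 of 30 were above 0, with a median of 0.15 against 0 for all genes. Their gene bodies had medians of 0.686 in WT and 0.809 in dSnf2, and among all genes with a WT body occupancy from 0.5 to 0.75 the median was 0.089 and 80.1% were above 0. In the lists of silencing and telomere proteins (SIR2 and RIF2 lower), hexose transport (HXT3 higher), cyclins (CLB1 higher), small ribosomal subunit proteins (RPS22B higher) and Gcn4 targets (ARG3 lower at -0.58), 1 or 2 members passed the rule. No member passed it at its promoter among 12 SWI/SNF subunits, 17 RSC subunits, 11 histones, 17 genes of trehalose and glycogen, 37 of respiration, 27 of meiosis, 25 chaperones, 30 ribosome biogenesis genes, 76 large ribosomal subunit proteins, 23 pheromone genes or 18 phosphate genes. With 0.73% of all promoters past the rule upward and 0.306% downward, holding none does not set lists of these sizes apart.

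**Figure D3:**
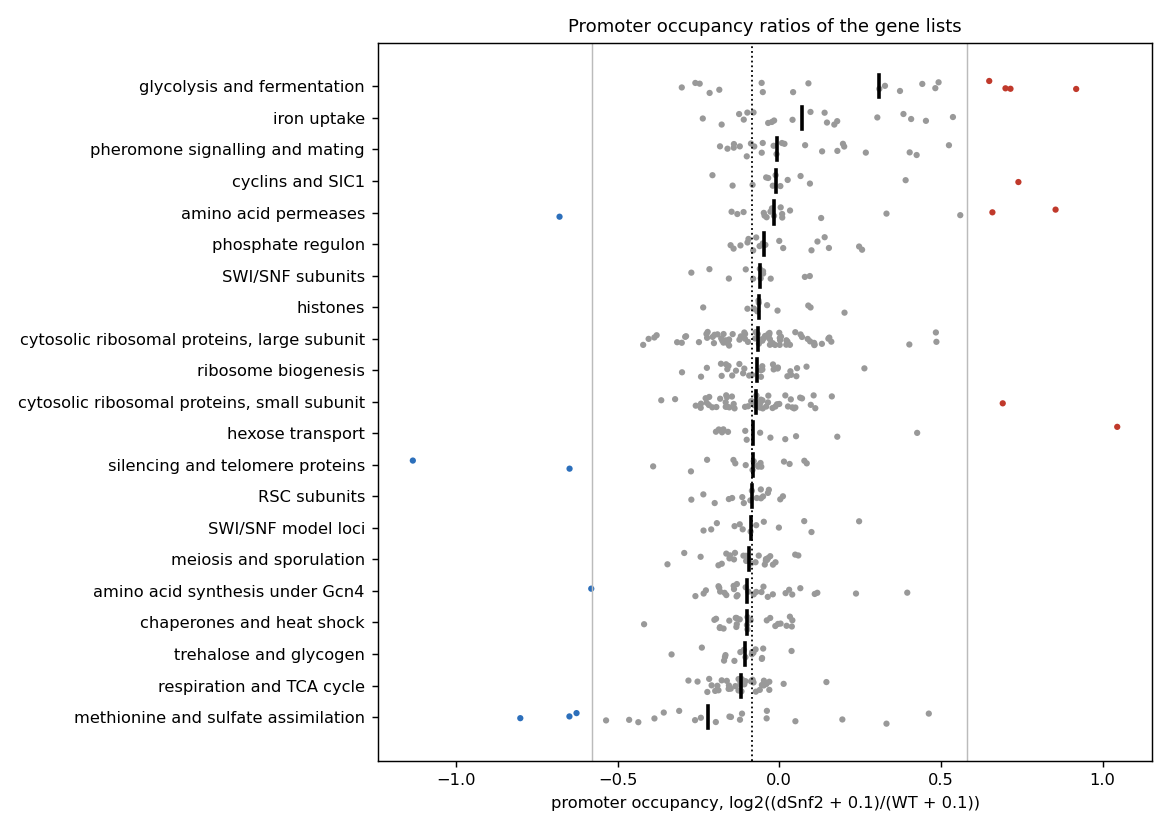
Promoter occupancy log2 ratios of dSnf2 to WT (horizontal axis) for the members of 21 gene lists (rows), with 1 point per gene, a black bar at each list's median, a dotted line at the median of all genes (-0.085) and grey lines at -0.58 and 0.58. Red points (at or above 0.58) are most numerous in glycolysis and fermentation, with 4, and blue points (at or below -0.58) in methionine and sulfate assimilation, with 3.

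Fewer gene bodies than promoters passed the size rule in occupancy, but counts depend on window length, here up to 1000 bp against 300 bp. By the size rule 14 gene bodies were higher (0.238%) and 7 lower (0.119%), SNF2 among the latter. The highest of the named genes were RPS29B (1.14), ATX1 (1.03), SIT1 (0.84), RPS28A (0.69), PRM7 (0.55) and PTR2, a peptide transporter (0.53), of which PRM7 and PTR2 did not reach the size rule. Of these 6 windows only that of PTR2 was not touched by a call without room in the other list. At SIT1 (YEL065W, chromosome V, 27657 to 29543) the gene body was at 0.521 in WT and 1.01 in dSnf2. Calls of SIT1 at 127 and 333 bp in WT held 1.05 and 0.856, and those at 155 and 328 bp in dSnf2 held 1.41 and 1.31. RPS29B and RPS28A are short genes with close paralogs, so their values are uncertain. The lowest apart from SNF2 were MIN6 (-1.3), LSO2 (-0.88), SPO24 (-0.71), MET6 (-0.54) and MET13 (-0.51), and MET6 and MET13 did not reach the size rule.

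The sharpness of placement was compared by the dyad SD. At single calls the dyad SD was lower in dSnf2 by 5 bp or more at 1328 of 59139 calls (2.25%) and higher at 500 (0.845%), with a median difference of -0.079 bp. Tighter calls were 3.98% of those outside open reading frames and 1.76% of those inside. By rank, 3.03% of -1 nucleosomes and 2.51% of +1 nucleosomes were tighter, and 0.590% and 0.498% looser. Averaged over the matched calls in the first 1000 bp of a gene, for 4999 genes with at least 3 such calls, the dyad SD was lower by 5 bp or more in 46 genes (0.92%) and higher in 9 (0.18%). The 46 had a median of 35.3 bp in WT and 28.3 bp in dSnf2, while the median of all genes was 26.4 and 26.2 bp. In 45 of the 46 the gene body occupancy was higher in dSnf2, with a median log2 ratio of 0.24, and in 8 of the 9 it was lower. Among all 5889 genes it was higher in 2826. Over all 4999 genes the difference in dyad SD and the gene body ratio had a Spearman correlation of -0.32, given as a description, since both come from the same calls and lists. The WT list merged 3 replicates and the dSnf2 list 2, and a difference in the number of merged samples cannot be told apart from one in placement at any gene.

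The genes named next for their dyad SD were chosen after their values were seen. At YHB1, the flavohemoglobin that detoxifies nitric oxide (YGR234W, chromosome VII, 959904 to 961103), the mean dyad SD was 34.5 bp in WT and 23.4 bp in dSnf2. The dyads hardly moved: the calls of YHB1 at 112, 293, 472 and 635 bp in WT lay at 113, 292, 473 and 640 bp in dSnf2. Their dyad SDs were 36.8, 32.0, 35.1 and 33.6 bp in WT and 25.3, 22.2, 23.2 and 23.1 bp in dSnf2. Their occupancies were 0.935, 0.833, 0.810 and 0.736 against 1.22, 1.21, 1.24 and 1.19. At STE6, the exporter of a-factor (YKL209C, chromosome XI), the mean went from 35.1 to 26.3 bp, with calls at 100 bp (38.2 bp) in WT and 104 bp (24.0 bp) in dSnf2, and at 260 bp (34.3 bp) and 262 bp (22.1 bp). SIT1 had 37.3 bp in WT and 29.5 bp in dSnf2.

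CUP9, a repressor of peptide uptake, had a mean dyad SD of 39.8 bp in WT and 28.7 bp in dSnf2. SAM1, an S-adenosylmethionine synthetase gene, had 37.3 and 27.1 bp, GCR1, the activator of glycolytic genes, 37.7 and 28.3 bp, and the cyclophilin gene CPR1 38.9 and 29.6 bp. The siderophore transporter gene ARN1 had 37.4 and 29.9 bp. SER3, whose promoter occupancy did not differ by the size rule, was at 39.0 bp in WT and 32.2 bp in dSnf2, with a call at 271 bp in both strains (38.0 and 29.2 bp). PHO5 was at 34.4 and 29.4 bp, just past 5 bp. SUC2 (32.4 and 31.3 bp), HO (31.0 and 33.3 bp), INO1 (32.7 and 31.2 bp) and PHO8 (27.0 and 27.7 bp) differed by less. The same difference from WT in CD was -11.2 bp at YHB1, -7.79 bp at STE6 and -4.83 bp at SER3, and in dSnAC it was -9.0, -5.85 and -0.055 bp.

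Looser placement was most frequent at genes of methionine synthesis. MET13 had a mean dyad SD of 22.8 bp in WT and 32.1 bp in dSnf2. Its calls at 1, 175 and 341 bp had 22.1, 17.6 and 20.3 bp in WT, and those at 5, 175 and 339 bp in dSnf2 had 36.8, 30.1 and 28.9 bp. MET6 had 31.5 and 37.8 bp, MET28, an activator subunit of the pathway, 34.6 and 41.2 bp, and MET5 24.7 and 29.9 bp. Of the 9 looser genes 4 were thus in the methionine list, whose 22 genes had a median difference of 1.56 bp with 5 below 0. SAM1 went the other way by more than 5 bp, as given above. The others were the cell wall gene PIR1, BTS1, which makes geranylgeranyl diphosphate, SUT2, the tryptophan permease TAT2 and YPR015C. SIR2 had 28.4 and 33.0 bp. Ribosomal protein genes went the other way, with a difference below 0 in 51 of 58 large-subunit genes (median -1.42 bp) and 35 of 39 small-subunit genes (median -1.48 bp), against 2678 of all 4999. None of these passed 5 bp in either direction. The large- and small-subunit lists had WT gene body medians of 0.540 and 0.518. Among all genes with a WT body occupancy from 0.5 to 0.75 the median difference was -0.49 bp, and below 0.5 it was -1.14 bp. A difference below 0 was thus shared by genes of low occupancy in general.

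**Figure D4:**
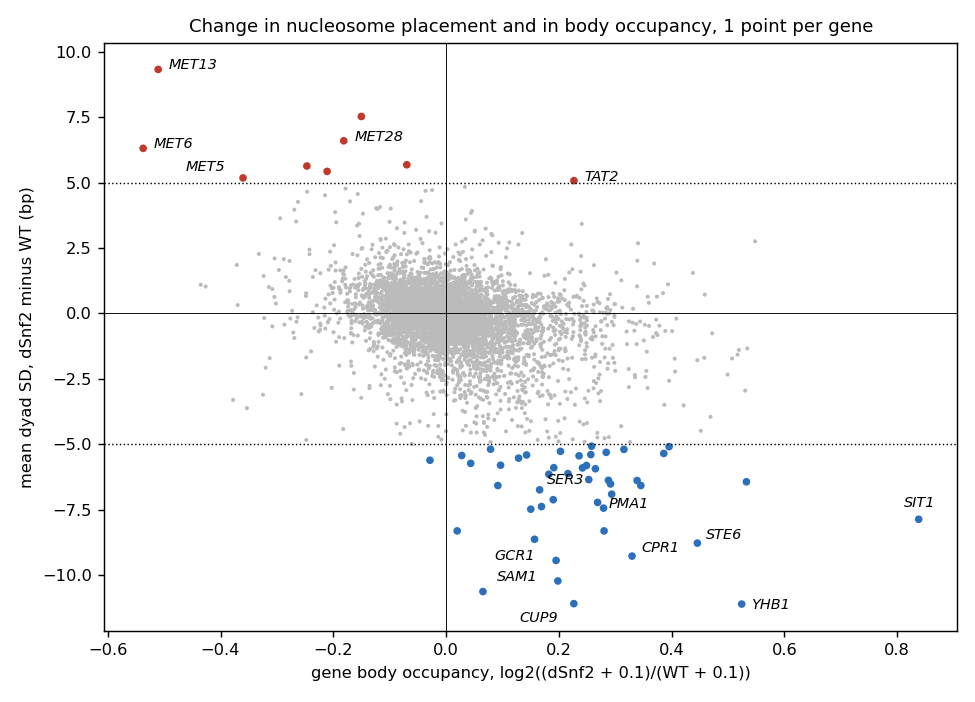
Mean dyad SD of gene body nucleosomes, dSnf2 minus WT in bp (vertical axis), against the log2 ratio of gene body occupancy (horizontal axis), with 1 point per gene for 4999 genes and dotted lines at -5 and 5 bp. The 46 tighter genes (blue) lie on the right, with higher occupancy, in 45 cases, and the 9 looser genes (red) on the left in 8.

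**Figure D5:**
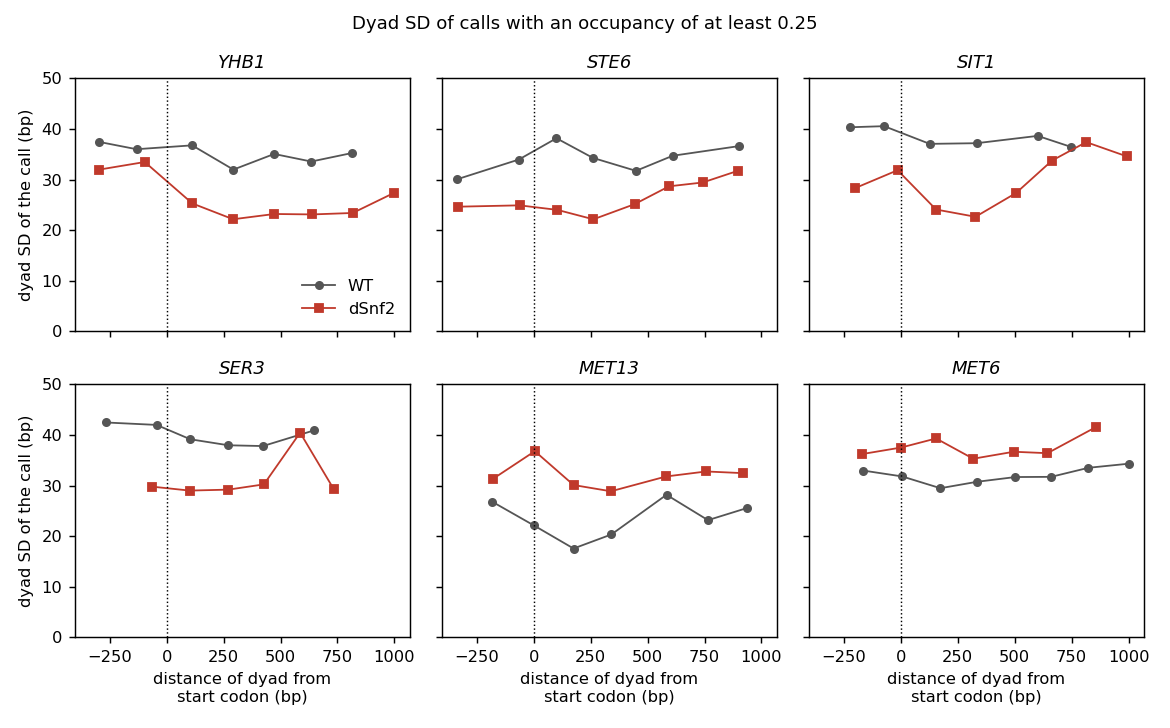
Dyad SD of each call (vertical axis, bp) against the distance of its dyad from the start codon (horizontal axis, bp) at 6 genes, WT in grey circles and dSnf2 in red squares, for calls with an occupancy of at least 0.25. The dSnf2 points lie below those of WT along YHB1 and STE6 and above them along MET13 and MET6, and at SIT1 and SER3 the strains differ most in the first calls of the gene.

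Gene ends held the most windows past the size rule, but counts from windows of 200, 300 and up to 1000 bp are not directly comparable. With an end window of 100 bp the counts were 154 higher and 257 lower. Part of the gene ends past the rule coincided with a property of the lists. The 200 bp past the stop codon were higher in dSnf2 at 79 genes (1.34%) and lower at 118 (2%). In neither list were dyads closer than 148 bp, so a call between neighbours needs 296 bp. Of 1996 WT calls without a partner in dSnf2, 93.2% faced flanking dSnf2 calls less than 296 bp apart, and of 1987 dSnf2 calls without a WT partner 95.6% did. In 773 and 840 cases only a middle call was missing: its neighbours were matched, and it and the facing calls held at least 0.25. Windows touched by such a call were 47 of the 118 lower gene ends and 19 of the 79 higher ones, which left 71 and 60. At promoters it left 31 higher and 12 lower, and in gene bodies 9 and 5.

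The 6 named gene ends with the lowest ratios, MRPL10 (-1.48), VPS52 (-1.46), VPS72 (-1.41), MGA2 (-1.39), NVJ2 (-1.34) and PUL4 (-1.3), were all of this kind. VPS52 and VPS72 are convergent neighbours 131 bp apart and share the missing call. At MRPL10, a mitochondrial ribosomal protein gene, WT calls at 52 and 209 bp past the stop codon faced dSnf2 calls at -86 and 208 bp, with none between. The low gene body value of MIN6 had the same form, with WT calls at -99, 49 and 197 bp of the start codon and dSnf2 calls at -96 and 195 bp. Among the highest, OCH1 (1.28) was touched by such a call, while SHR5 (2.11), MLH3, a mismatch repair gene (1.63), PHO5 (1.49), RAD55, a recombination gene (1.39), and PTR2 (1.15) were not by that rule. At RAD55 the call at 106 bp past the stop codon held 0.301 in WT, and dSnf2 had calls of 0.724 at 85 bp and 1.03 at 233 bp. The latter also lay between WT calls less than 296 bp apart, of which the outer one was below 0.25, and a weak dSnf2 call past PHO5, at 230 bp (0.144), did so too. Past MLH3, the dSnf2 call at 140 bp (0.748) had no WT partner. It lay between WT calls at -72 bp (1.33) and 218 bp (0.730), also less than 296 bp apart. The WT call at 218 bp had no dSnf2 partner either, so the rule for a missing middle call did not count this window. By neighbour, 92 of 3044 convergent gene ends (3.02%) and 26 of 2845 tandem ones (0.914%) were lower, and 38 and 41 were higher, with median ratios of -0.094 and -0.095. Without windows touched by a missing middle call 51 convergent and 20 tandem ends were lower. Convergent genes as close as VPS52 and VPS72 count 1 missing call for both ends.

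The other SNF2 mutants were compared with the same WT list, so all ratios share it and are given side by side only. The CD list merged 3 replicates, that of dSnAC replicates 1 and 3, and that of dAT replicates 2 and 3. In the order dSnf2, CD, dSnAC and dAT, the promoter ratios were 1.20, 0.84, 0.46 and 0.27 at ZEO1, 1.05, 0.81, 0.38 and 0.19 at HXT3, and 0.92, 0.84, 0.42 and 0.07 at TDH3. They were -0.80, -0.71, -0.43 and -0.70 at MET6 and -0.72, -0.63, -0.61 and -0.75 at SPO24. MTC7 had the opposite order, at 0.79, 0.92, 0.99 and 1.09. The median promoter ratio of all genes also fell from dSnf2 to dAT, at -0.085, -0.15, -0.23 and -0.30. Compared with CD directly, 11 of 5889 promoters of dSnf2 were higher by the size rule (0.187%) and 7 lower (0.119%), with a median of 0.068. SIR2 and TMA10 were among the lower ones, and RPS29B, PFK1 and STM1 among the higher.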

How the data were processed

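Budding yeast chromatin was digested with micrococcal nuclease, DNA of single nucleosomes was recovered from gel slices, and libraries were made without PCR, per the labels' protocols. The submitters' processing notes name Bowtie and sacCer3, and no header or label names the nucleosome caller or a filter on calls. The authors deposited 1 list of calls per strain, which merges WT replicates 1, 2 and 3 or dSnf2 replicates 1 and 2, per the labels. The deposited occupancy is a coverage signal. Within a tolerance of 0.01 every value (100%) was a whole multiple of the smallest one, which was read as 1 read. The deposited conditional position is a fraction. The other deposited columns used, the dyad and its SD, are positions in bp, per the file headers.

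From these lists occupancies were divided by the median nuclear call outside the ribosomal DNA (chromosome XII, 451000 to 469000) and calls were drawn as nucleosome-sized footprints around their dyads. Windows were compared as log2((dSnf2 + 0.1)/(WT + 0.1)), which understates changes at low occupancy. Genes came from a RefSeq table of R64: of 6002 nuclear protein-coding genes, 5889 were measured and 113 near chromosome ends (start codon in the outer 10 kb) were not. Strand was read from the systematic name. Dyads of the lists were paired where each was the other's nearest, up to 73 bp away, and dyad SDs and conditional positions were compared where both calls held at least 0.25. A count model needs replicates, and each strain has 1 list. Intervals cover counting error only and had a median half-width of 0.10 (log2) at the named promoters.

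The gene lists and the naming rule were chosen with earlier results of these data known, so they are no independent support. Named were SNF2 and 4 markers, genes with a standard name and a mean occupancy of at least 0.25 (12 highest and 12 lowest promoters, 6 and 6 gene bodies and gene ends), the 6 largest +1 displacements each way, the 6 strongest unmatched calls each way, up to 4 members per list, and SUC2, PHO5, PHO8, HO, INO1 and SER3. Further list members were named after their values were seen. The functions were tested on simulated data. Alternatives changed the scaling, pseudocount, call filter, footprint, windows, size rule, match distance, displacement and gap position. Python 3.11.15, pandas 2.3.3, numpy 2.4.6 and scipy 1.17.1 were used.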

Additional observations from a re-analysis of the deposited data

Results flagged for a closer look

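Calls on the mitochondrial genome, which no comparison used, held 0.0462% of the reads in dSnf2 (19042 reads) and 0.0371% in WT (24119 reads). They were flagged because they were left unanalysed. The share of reads was higher in dSnf2 than in WT. It was 0.0328% in CD, 0.00884% in dSnAC and 0.00424% in dAT. Mitochondrial DNA carries no nucleosomes, and these reads were left out of the scaling.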

How the results depend on the processing

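No paired analysis was possible because each strain has 1 merged list, and for the same reason no replicate could be left out. Of 109 alternatives for counts, medians and percents, 69 stayed within 1.5 times a count or inside the interval over genes or calls of a median or percent, and none reversed. Promoters higher went from 43 to 21 with a pseudocount of 0.25 and 3 at a size rule of 1. Promoters lower went from 18 to 4 and 1 in the same settings, 34 with calls of at least 0.25, 7 relative to the median gene (57 higher), 39 in a 200 bp and 6 in a 500 bp window. The promoter median was -0.074 scaled by total occupancy, -0.072 with the larger pseudocount, -0.080 with stronger calls, -0.082 with shorter footprints, and -0.080 and -0.069 in the 200 and 500 bp windows. Gene bodies went from 14 higher to 7 (pseudocount), 5 (size rule 1) and 9 (no dropped middle call), and from 7 lower to 3 (size rule 1), and their median was 0.0056 scaled by total occupancy. Gene ends went from 79 higher to 47, 22 and 154 and from 118 lower to 72, 25 and 257 with the pseudocount, the size rule of 1 and a 100 bp window. Without windows touched by a dropped middle call 71 were lower. Gene end medians were -0.084 (total), -0.079 (pseudocount) and -0.090 (100 bp). Within 40 bp 93.1% of calls matched and 5.37% were displaced, 8.67% were displaced among calls of at least 0.25, and 6.0% were by 30 bp. Matched calls lower in occupancy went from 357 to 91 with the pseudocount, and their median was -0.0033 (total), -0.015 (40 bp) and -0.012 (pseudocount). At 30 bp, +1 lay upstream in 65 and downstream in 28 genes. With at least 5 calls per gene 30 genes were tighter. The filters on dropped middle calls and the settings for the mean dyad SD per gene were added after the data were seen. The cause of these shifts was not tested. Medians relative to the median gene are 0 by construction.

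The 24 named promoters kept their direction in every setting but FLC1 in the 500 bp window (0.037), and 16 were past the size rule in each of the 200 bp window, the 500 bp window and the setting with a pseudocount of 0.25. Relative to the median gene the list medians of ribosome biogenesis (0.015), silencing (0.0040), SWI/SNF subunits (0.026), RSC (0.00023), large (0.020) and small (0.014) ribosomal subunits turned positive, and the large subunit also with calls of at least 0.25 (0.0051). Counting error alone gave single windows a median 95% half-width of 0.085 (log2) at promoters, 0.052 in gene bodies and 0.10 at gene ends over all genes.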

Other observations

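The 6 strongest WT calls without a dSnf2 partner held 1.31 to 1.43. The first lay downstream of GAL3, an inducer of galactose genes, and another inside FLO11, a flocculin gene of adhesion (1.36). The weakest of them lay inside NAT1, upstream of SIR2 (1.31). The 6 strongest dSnf2 calls without a WT partner held 1.29 to 1.49 and included those inside ALG14 (1.49), downstream of STU2 (1.39) and upstream of HXT3 (1.34) and HNT1 (1.29). In each of the 12 cases the flanking calls of the other list were 165 to 257 bp apart.

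Nucleosomes within 300 bp of 275 tRNA genes were displaced by 20 bp or more in 4.76% of 841 matched calls, against 9.01% of all. By the size rule 1 of the 841 was higher and 6 were lower in occupancy, against 0.47% and 0.583% of all matched calls. In the outer 10 kb of chromosomes 11.1% of 668 matched calls were displaced, 4.72% were tighter and 2.64% looser. Over all calls these shares were 9.01%, 2.25% and 0.845%.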
